A study of Mus musculus with 9 samples.

Results

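Notch signalling genes were followed under 3 kinds of flow in bEnd.3, an endothelial line from mouse brain that carries the polyoma middle T antigen. The members were chosen by name as 2 receptors (Notch1 and Notch4), 4 ligands (Dll1, Dll4, Jag1 and Jag2) and 4 transcription factor targets (Hes1, Hey1, Hey2 and Heyl). These are 10 of the 31232 genes in the deposited table, and each name matched 1 row. Polyadenylated RNA was sequenced from 3 libraries per group, 9 in all. Vortex cells were grown on glass coverslips in a parallel-plate chamber under vortex flow of 0.5 to 2 dyne/cm2, which stands for a late intracranial aneurysm in the study's design. HSS cells were under laminar flow of 20 dyne/cm2, standing for the high shear at a bifurcation where an aneurysm starts. PSS cells were under laminar flow of 10 dyne/cm2, standing for normal shear. The groups share 1 cell line, and the labels give neither an exposure time nor whether the libraries of a group came from separate cultures. The p-values therefore measure the spread between these libraries, which may be technical.

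In Notch signalling a ligand on 1 cell binds a receptor on its neighbour, the receptor is cut by proteases, and its freed intracellular part enters the nucleus. There it joins the DNA-binding protein RBPJ and switches on genes of the HES and HEY families, which are basic helix-loop-helix repressors. In blood vessels the pathway is known for arterial identity, for the choice between tip and stalk cells in a sprout, and for its response to flow.

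Total counts per library ranged from 17407217 to 22965802. Libraries of a group correlated across genes at r = 0.852 to 0.962 of log2 CPM in Vortex, 0.992 to 0.993 in HSS and 0.977 to 0.992 in PSS, where CPM is the count scaled to the TMM-adjusted library total. Vortex replicate 2 stood apart from the other libraries. It was the highest of the 9 libraries for 7 of the 10 Notch genes and for 30.5% of all tested genes, so each Vortex result is also given without it. The summed CPM of 10 endothelial markers was 1232, 6868 and 1593 in Vortex replicates 1, 2 and 3, 694 to 710 in HSS and 2359 to 3027 in PSS. In HSS the tight junction gene Cldn5 was at 2, 0 and 0 counts and the endothelial transcription factor gene Erg at 15, 8 and 5 counts, while Cdh5, the endothelial cadherin gene, was at 119 to 126 CPM. The summed CPM of fibroblast markers was 633, 56.2 and 542 in Vortex, 317 to 331 in HSS and 271 to 339 in PSS. Summed CPM ranged from 6.81 to 59.1 in Vortex, 36.7 to 39.5 in HSS and 18.6 to 24.4 in PSS for pericyte markers, and from 59.1 to 159 in Vortex, 93.8 to 102 in HSS and 66.7 to 94.1 in PSS for smooth muscle markers. Des made up most of the smooth muscle sum, at 57.7 to 158 CPM in Vortex, 92 to 99.7 in HSS and 64.7 to 91.9 in PSS. For leukocyte markers summed CPM was 8.69 to 17.5 in Vortex, 15.9 to 19.4 in HSS and 1.51 to 2.94 in PSS, with Ptprc, Itgam and Adgre1 under 10 counts in every library. Csf1r made up most of that sum, at 8.64 to 17.1 CPM in Vortex, 15.8 to 18.9 in HSS and 1.36 to 2.79 in PSS. For neural and glial markers the sum was 1.72 to 2.14 in Vortex, 1.74 to 1.84 in HSS and 1.85 to 2.37 in PSS. In bulk RNA, fewer cells of a type and less RNA per cell cannot be told apart.

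Levels of different genes are compared as FPKM, the count scaled to gene length and to the library's total. Hes1, a HES repressor, had the highest mean of the Notch genes in each group, at 29.3 ± 16.6 FPKM in Vortex, 28.3 ± 1.5 FPKM in HSS and 37.9 ± 3.53 FPKM in PSS (SD, n = 3 each). Of tested genes, 12.3% in Vortex, 12.6% in HSS and 8.78% in PSS had a higher mean. Hey2 and Heyl were the lowest, with means of 0.0457 FPKM each in Vortex, 0.0112 and 0.0101 FPKM in HSS and 0.369 and 0.381 FPKM in PSS. In PSS the order by mean FPKM was Hes1, Jag1, Notch1, Dll1, Hey1, Notch4, Jag2, Dll4, Heyl and Hey2. The ranges of Jag1 and Notch1, of Hey1 and Notch4, of Notch4 and Jag2, and of Heyl and Hey2 overlapped there. In HSS the order was Hes1, Jag1, Notch1, Notch4, Dll1, Jag2, Hey1, Dll4, Hey2 and Heyl, and ranges overlapped between Hey1 and Dll4 and between Hey2 and Heyl only. In Vortex every pair of neighbours in the order overlapped.

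**Figure D1:**
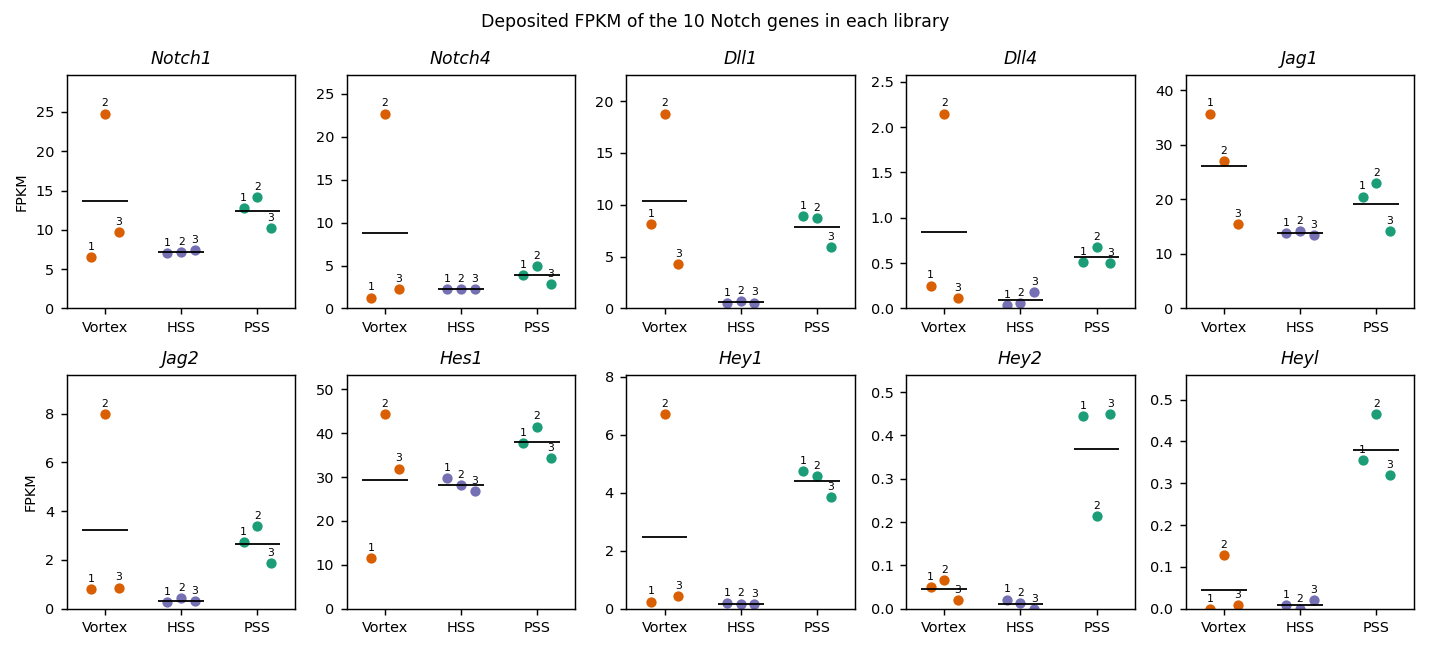
Deposited FPKM of each Notch gene (1 panel per gene, y axis from 0) in Vortex, HSS and PSS libraries, with replicate numbers beside the points and a line at the group mean (n = 3). The 3 HSS libraries lie below the 3 PSS libraries in every panel, though barely so for Jag1, and Vortex replicate 2 lies far above Vortex replicates 1 and 3 for Notch4, Dll4, Jag2 and Hey1.

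HSS against PSS asks what doubling laminar shear did to the pathway. All 10 Notch genes had a lower level in HSS, and the HSS and PSS ranges of all 10 did not overlap, while 26.3% of tested genes were lower with no overlap. The ligand gene Dll1 and the target gene Hey1 fell by edgeR's quasi-likelihood test, and Hey2 and Heyl, which entered the test through other groups than HSS, were also called lower. These are 4 of 10, against 7.87% of tested genes called in either direction and 3.7% called lower. Receptors and Hes1 were lower by less than 2-fold and did not pass. The median log2 fold change of the 10 genes was -2.76, lying between Dll4 and Jag2, against a median of 0.0 over all tested genes. Hey2 reached the filter's 0.518 CPM in PSS libraries only, Heyl in PSS and Vortex replicate 2 only, and Dll4 in 1 of 3 HSS libraries. A gene that enters the test through the group where it is high had to differ, so the calls of Hey2 and Heyl and the counts over the 10 genes are a description.

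Among the ligands, Dll1 had the clearest fall. Dll1, a Delta-type ligand known from arterial endothelium, was at 2.22, 2.86 and 2.31 CPM in HSS libraries, against 35.5, 34.5 and 24.6 CPM in PSS libraries. The 3 HSS values lie close together and far below every PSS value. In HSS Dll1 fell by 3.68 ± 0.53 in log2 fold change (SE), or 12.8-fold (edgeR's quasi-likelihood test, adjusted p = 0.00498). The call held when any 1 of the 9 libraries was left out, with adjusted p of 1.53e-05 to 0.0392. Jag2, a Jagged-type ligand, was at 1.84, 2.86 and 2.05 CPM in HSS, against 17.9, 22.1 and 12.9 CPM in PSS. Its log2 fold change was -2.97 ± 0.86 (SE) and did not pass with all 9 libraries (edgeR adjusted p = 0.0712), but passed without Vortex replicate 2 (2.41e-05) or replicate 1 (0.0286) and with the GC trend removed (0.0262). Dll4, the ligand of tip and arterial cells, was at 0.141, 0.224 and 0.684 CPM in HSS, against 1.87, 2.43 and 1.89 CPM in PSS. These HSS levels rest on 3, 4 and 13 counts, and the log2 fold change of -2.55 ± 1.07 did not pass (edgeR adjusted p = 0.189; 0.0063 without Vortex replicate 2). Jag1, the most abundant ligand transcript, was at 78.6, 80.4 and 76.4 CPM in HSS, against 113, 126 and 81.1 CPM in PSS. HSS replicate 2 and PSS replicate 3 nearly met, and Jag1 did not pass (-0.44 ± 0.31, edgeR adjusted p = 0.445; 0.267 without Vortex replicate 2).

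The promoter windows of Dll1 are shown because it is the member whose level differed most clearly between flow conditions. They come from RefSeq on GRCm38.p6, and run from 250 bases before to 50 after an annotated start, 5′ to 3′ on the minus strand. Window 1 lies at chr17:15375774-15376073 and window 2 at chr17:15376883-15377182. Capitals mark an N-box, CACNAG on either strand (read as CTNGTG on the other), the motif of HES repressors, which was found once, 14 bases after the start in window 2. It occurs in 42.5% of 32851 promoter windows of the same length, and a match is a description of the letters only.
Dll1 window 1: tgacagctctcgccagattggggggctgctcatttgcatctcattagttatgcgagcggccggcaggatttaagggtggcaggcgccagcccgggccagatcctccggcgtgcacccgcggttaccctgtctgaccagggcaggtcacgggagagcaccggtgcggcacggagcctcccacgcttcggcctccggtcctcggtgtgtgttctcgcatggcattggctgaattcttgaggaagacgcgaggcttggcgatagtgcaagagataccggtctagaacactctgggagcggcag
Dll1 window 2: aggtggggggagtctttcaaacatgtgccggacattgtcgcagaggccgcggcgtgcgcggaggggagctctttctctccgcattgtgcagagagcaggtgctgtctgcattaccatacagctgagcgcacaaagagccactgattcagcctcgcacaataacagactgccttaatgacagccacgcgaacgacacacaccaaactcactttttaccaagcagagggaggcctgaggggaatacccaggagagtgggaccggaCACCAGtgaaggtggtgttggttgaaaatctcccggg

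The receptors differed less. Notch1, the main endothelial receptor of the pathway, was at 97.7, 99.3 and 103 CPM in HSS, against 172, 190 and 143 CPM in PSS. Notch4, a receptor found mostly in endothelium, was at 17.8, 17.8 and 17.6 CPM in HSS, against 29.5, 37.3 and 22.3 CPM in PSS. Both were lower in each HSS library than in any PSS library, by 1.68-fold and 1.67-fold in the fit. Neither passed with all libraries (Notch1 -0.75 ± 0.42, edgeR adjusted p = 0.33; Notch4 -0.74 ± 0.88, adjusted p = 0.678). Without Vortex replicate 2 both passed at the same fold change, at adjusted p = 0.00477 for Notch1 and 0.0326 for Notch4.

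Of the targets, Hey1 fell, Hes1 did not pass, and Hey2 and Heyl were at 0 to 2 counts in each HSS library. Hey1, a repressor of arterial endothelium, was at 0.613, 0.561 and 0.526 CPM in HSS, against 14.6, 14 and 12.4 CPM in PSS. That is 10 to 13 counts in each HSS library and 262 to 289 counts in each PSS library. Hey1 fell by 4.57 on the log2 scale (SE 1.16; edgeR adjusted p = 0.0452). The call ended when any 1 PSS library (0.105 to 0.124) or HSS library (0.167 to 0.176) was left out, and the adjusted p was 1.55e-06 without Vortex replicate 2. Hey2, which acts with Hey1 in arterial development in mice, had 2, 1 and 0 counts in HSS, against 38, 19 and 43 counts in PSS. Heyl, a HEY gene known from vessel walls, had 1, 0 and 2 counts in HSS, against 34, 46 and 34 counts in PSS. Every HSS library was thus at or near 0 for both genes. Scaled by TMM-adjusted totals, the PSS level was 31.5 times the HSS level for Hey2 (95% Clopper-Pearson interval 10.5 to 155) and 35.9 times for Heyl (12 to 177), intervals that cover counting error only. Hey2 (edgeR adjusted p = 0.00766) lost its call without HSS replicate 2 (0.0554), and Heyl (adjusted p = 0.0353) when any 1 PSS or HSS library was left out (0.102 to 0.157). Hes1 was at 59.4, 56.1 and 53.4 CPM in HSS, against 72.6, 79.3 and 69 CPM in PSS, and its log2 fold change of -0.39 ± 0.39 did not pass (edgeR adjusted p = 0.615; 0.313 without Vortex replicate 2).

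The spread of the Vortex libraries enters these tests. In a fit to the HSS and PSS libraries alone, all 10 Notch genes passed as lower, against 40.8% of tested genes called and 20.4% called lower. Without Vortex replicate 2, 8 of 10 passed as lower, all but Jag1 and Hes1, against 29.1% of tested genes called and 13.7% called lower. Hey2 and Heyl entered both fits through PSS alone, and Dll4 mostly through PSS, where they are high, so both counts are a description. Of 10 endothelial markers, 7 were called lower in HSS and none higher, against 7.87% of tested genes called and 3.7% called lower. Cldn5 and Erg, among the 7, entered the test mostly through other groups than HSS, so this count is a description. Cdh5, also among the 7, was at 126, 119 and 120 CPM in HSS and 551, 577 and 450 CPM in PSS. Flt1, a growth factor receptor gene, went the other way, at 334, 329 and 338 CPM in HSS and 255, 258 and 178 CPM in PSS (0.53 ± 0.18, edgeR adjusted p = 0.104; 0.0209 without Vortex replicate 2). The part of these markers in the Notch gene values was not tested.

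**Figure D2:**
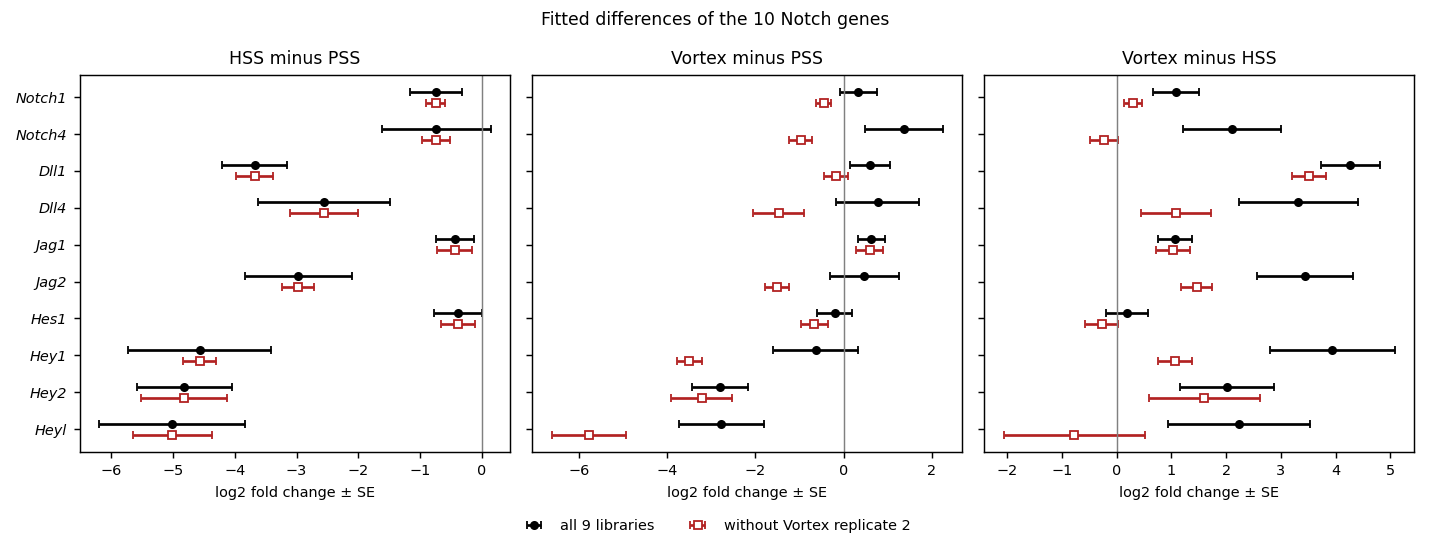
Fitted log2 fold change (x axis, ± SE) of each Notch gene for HSS minus PSS, Vortex minus PSS and Vortex minus HSS, from edgeR fits to all 9 libraries (black) and without Vortex replicate 2 (red open squares). The HSS minus PSS estimates of the 10 genes lie at or below -0.39 in both fits. The Vortex minus PSS estimates of Notch1, Notch4, Dll1, Dll4 and Jag2 change sign between the fits. Values of Hey2 and Heyl rest on groups of few counts.

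Of the target genes only Hey2 had a promoter window to search, and that window holds the pathway's own motif. Hes1, Hey1 and Heyl had no window, so they could not be searched. The RBPJ-type motif TGGGAA, or TTCCCA on the other strand, was searched with the E-box CACGTG and the N-box in 8 windows of the 7 members that have one, which are Notch1, Notch4, Dll1, Dll4, Jag1, Jag2 and Hey2. The RBPJ-type motif was found in 1 window, that of Hey2, which holds it 2 times, 207 and 3 bases before the start. In all 32851 windows, 25.6% hold it at least once and 3.79% hold 2 or more. The E-box was in none of the 8 windows and in 7.15% of all windows. N-boxes were found in windows of Notch1, where a pair overlaps as CACTAGTG at the start and another, CACAAG, lies 108 bases before it, of Dll4, 75 bases before the start, and of Dll1 as shown above. The Hey2 window lies at chr10:30842734-30843033 on the minus strand of GRCm38.p6 (RefSeq), and capitals mark the RBPJ-type motif.
Hey2 window: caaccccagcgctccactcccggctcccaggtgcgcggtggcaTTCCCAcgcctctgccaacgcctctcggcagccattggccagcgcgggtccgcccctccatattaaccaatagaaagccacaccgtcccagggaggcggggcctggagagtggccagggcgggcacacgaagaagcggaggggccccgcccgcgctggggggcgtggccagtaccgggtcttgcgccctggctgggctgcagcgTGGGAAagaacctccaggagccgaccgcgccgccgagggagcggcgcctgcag

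Vortex against PSS asks what vortex flow at low shear did relative to normal shear. With all 9 libraries only Hey2 passed, as lower, which is 1 of 10 Notch genes against 13.4% of tested genes called and 5.03% called lower. The Vortex and PSS ranges did not overlap for Hey2 and Heyl, both lower, while 14.4% of tested genes were lower with no overlap. The picture without Vortex replicate 2 differed: Notch4, Jag2, Hey1, Hey2 and Heyl passed as lower, 5 of 10 against 36.3% of tested genes called and 16.6% called lower. Hey2 entered the test through the PSS libraries alone and Heyl through PSS and Vortex replicate 2, so these counts too are a description. The median log2 fold change was 0.40 with all libraries, against 0.11 over all tested genes, and -1.22 without Vortex replicate 2, against 0.01.

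Hey2 had 4, 7 and 2 counts in Vortex replicates 1, 2 and 3, against 38, 19 and 43 counts in PSS. All 3 Vortex libraries were below every PSS library, Vortex replicate 2 included. The log2 fold change of Hey2 was -2.80 ± 0.64 (SE; edgeR adjusted p = 0.0224), and -3.22 without Vortex replicate 2 (0.00576), in a test that Hey2 entered through PSS, where it is high. The call ended without PSS replicate 1 (0.0986), PSS replicate 3 (0.0801), HSS replicate 2 (0.0536) or Vortex replicate 3 (0.0656), with the GC trend removed (0.0864) and in a fit to Vortex and PSS alone (0.0709). Heyl had 0, 15 and 1 counts in Vortex, against 34, 46 and 34 counts in PSS, and did not pass with all libraries (-2.77 ± 0.96, edgeR adjusted p = 0.0883). It passed without Vortex replicate 2 (0.00064), where the PSS level was 67 times that of Vortex replicates 1 and 3, with a 95% Clopper-Pearson interval of 11.8 to 2670. It also passed in DESeq2 (0.036) and in limma-voom (0.0233). Heyl entered these tests mostly through PSS, where it is high, so its calls are a description.

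Hey1 split the Vortex libraries most. It was at 0.883, 24 and 1.48 CPM in Vortex replicates 1, 2 and 3, or 14, 504 and 30 counts, against 12.4 to 14.6 CPM in PSS. Vortex replicates 1 and 3 were thus close to HSS and replicate 2 was above every PSS library. Hey1 did not pass with all libraries (-0.63 ± 0.96, edgeR adjusted p = 0.707), and fell by 3.50 without Vortex replicate 2 (SE 0.28, adjusted p = 1.57e-05). Jag2 was at 6.12, 60.9 and 6.27 CPM in Vortex, against 12.9 to 22.1 CPM in PSS, with log2 fold changes of 0.47 ± 0.78 (adjusted p = 0.734) with all libraries and -1.51 ± 0.27 (0.00208) without Vortex replicate 2. Notch4 was at 11.2, 200 and 19 CPM in Vortex, against 22.3 to 37.3 CPM in PSS, with 1.37 ± 0.88 (adjusted p = 0.338) and, without Vortex replicate 2, -0.97 ± 0.26 (0.0159). For both genes replicate 2 was above all PSS libraries and the other 2 Vortex libraries below them all.

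Dll1 and Jag1 did not pass, with or without Vortex replicate 2. Dll1 was at 37.9, 86.7 and 18.5 CPM in Vortex, against 24.6 to 35.5 CPM in PSS, and Vortex replicates 1 and 3 lay to either side of the PSS range. Its log2 fold change was 0.60 ± 0.46 (edgeR adjusted p = 0.433; -0.17 ± 0.28, 0.665 without Vortex replicate 2). Jag1 was at 229, 172 and 92.9 CPM in Vortex, against 81.1 to 126 CPM in PSS, and its highest library was replicate 1. Its log2 fold change was 0.63 ± 0.31 (edgeR adjusted p = 0.21), with the same direction without Vortex replicate 2 (0.59 ± 0.31, 0.161) and a call as higher without Vortex replicate 3 (0.91, 0.0443). Dll4 was at 1.07, 9.05 and 0.444 CPM in Vortex, against 1.87 to 2.43 CPM in PSS (0.78 ± 0.94, edgeR adjusted p = 0.629; -1.47 ± 0.58, 0.0722 without Vortex replicate 2). Notch1 was at 103, 386 and 144 CPM in Vortex, against 143 to 190 CPM in PSS (0.33 ± 0.42, edgeR adjusted p = 0.652; -0.45 ± 0.17, 0.0655 without it). Hes1 was at 25.9, 99.1 and 67.1 CPM in Vortex, against 69 to 79.3 CPM in PSS (-0.20 ± 0.39, edgeR adjusted p = 0.772; -0.66 ± 0.31, 0.12 without it). None of these 3 passed, and in each the Vortex values reached both above and below the PSS range.

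**Figure D3:**
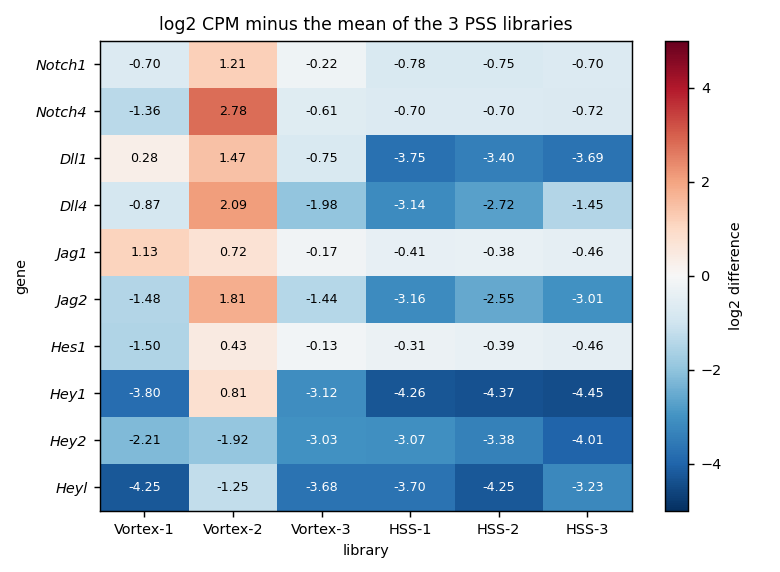
Difference of log2 CPM (prior count 2) between each Vortex and HSS library (columns) and the mean of the 3 PSS libraries, for the 10 Notch genes (rows), with red higher and blue lower. The 3 HSS columns are alike and negative throughout, the columns of Vortex replicates 1 and 3 are mostly negative, and the column of Vortex replicate 2 is positive for 8 of 10 genes.

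Taken 1 library at a time, a description chosen after the data were seen, the Vortex libraries shared a sign for few genes. Hey2 differed from the PSS mean by -2.21, -1.92 and -3.03 in log2 CPM in Vortex replicates 1, 2 and 3, and Heyl by -4.25, -1.25 and -3.68. Hey1 differed by -3.80, 0.81 and -3.12, Jag2 by -1.48, 1.81 and -1.44, and Notch4 by -1.36, 2.78 and -0.61. Replicates 1 and 3 shared a sign for all genes but Dll1 (0.28 and -0.75) and Jag1 (1.13 and -0.17).

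Library composition also differed among the Vortex libraries. When tested genes were split by GC content into 8 equal bins, Vortex replicate 2 differed from the PSS mean by a median of -1.42 in log2 CPM in the most GC-poor bin and of 0.86 in the most GC-rich bin. In Vortex replicate 3 the same medians were -0.47 and 0.25, and in Vortex replicate 1 -0.14 and 0.16. The transcripts of Notch4, Jag2, Hes1, Notch1 and Dll1, at 61.4%, 60.8%, 59.6%, 57.8% and 57.4% GC, fall in the most GC-rich bin. In Vortex replicate 2 Notch4, at 2.78, Jag2, at 1.81, Dll1, at 1.47, and Notch1, at 1.21, were above that bin's median, and Hes1, at 0.43, was below it. Hey1, at 52.9% GC, was at 0.81 where its bin had a median of 0.58. Hey2, with 41.9% GC the lowest of the 10, was at -1.92 where its bin had -1.42. Dll4, at 2.09, was above its bin's 0.79 and Heyl, at -1.25, below the same value. Jag1, at 0.72, was above its bin's -0.03. In Vortex replicate 1 Hey1 was at -3.80 and Heyl at -4.25, where their bins had 0.08 and 0.17. The part of GC content and of the endothelial markers, whose sum was also highest in Vortex replicate 2, in these values was not tested.

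**Figure D4:**
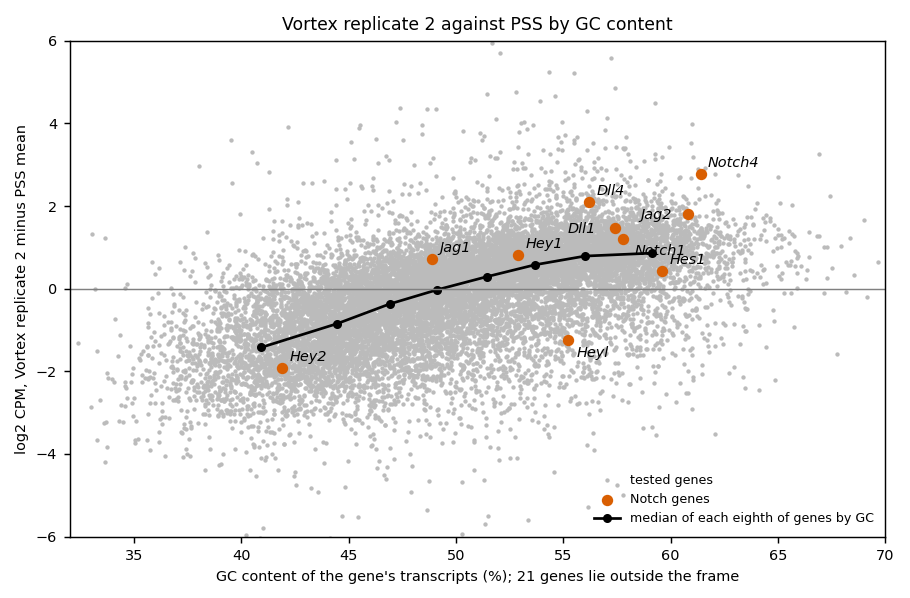
Log2 CPM of Vortex replicate 2 minus the PSS mean (y axis) against the GC content of each gene's transcripts (x axis, %), for tested genes (grey), with the 10 Notch genes in orange and the median of each of 8 GC bins in black; 21 genes lie outside the frame. The medians climb from -1.42 in the most GC-poor bin to 0.86 in the most GC-rich one, and Notch4, Dll4 and Jag2 lie above that line while Hes1 and Heyl lie below it.

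Vortex against HSS compares the 2 aneurysm-like conditions with each other. Dll1 and Jag2 rose, 2 of 10 Notch genes against 7.04% of tested genes called and 4.37% called higher. The Vortex range was above the HSS range with no overlap for 6 genes, Notch1, Dll1, Jag1, Jag2, Hey1 and Hey2, against 19.5% of tested genes. The median log2 fold change was 2.17, against 0.10 over all tested genes, and 1.05 without Vortex replicate 2, against 0.03. Vortex against PSS and HSS against PSS share their PSS libraries, and this comparison shares the libraries of both.

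Dll1, at 37.9, 86.7 and 18.5 CPM in Vortex, against 2.22, 2.86 and 2.31 CPM in HSS, rose by 4.27 on the log2 scale (SE 0.54), or 19.4-fold (edgeR adjusted p = 0.00825). Without Vortex replicate 2 it rose by 3.51 (SE 0.31, adjusted p = 0.000156). The lowest Vortex library had over 6 times the CPM of the highest HSS library. The call ended without any 1 HSS library (0.0665 to 0.0781) and in a fit to the 2 groups alone (0.0583). Jag2, at 6.12, 60.9 and 6.27 CPM in Vortex, against 1.84, 2.86 and 2.05 CPM in HSS, rose by 3.44 (SE 0.88, edgeR adjusted p = 0.0484), and by 1.46 without Vortex replicate 2 (SE 0.28, 0.00557). Its call ended when any 1 PSS library (0.0747 to 0.0913) or HSS library (0.16 to 0.193) was left out.

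The other ligands and the targets missed the threshold with all libraries. Jag1 was 2.1-fold higher in the fit (1.07 ± 0.31, edgeR adjusted p = 0.0701) and passed without Vortex replicate 2 (1.03 ± 0.31, 0.0363). Hey1, at 0.883, 24 and 1.48 CPM in Vortex, against 0.613, 0.561 and 0.526 CPM in HSS, had a log2 fold change of 3.94 ± 1.14 (edgeR adjusted p = 0.068) and, without Vortex replicate 2, rose by 1.07 (SE 0.31, 0.0329). Those were the 2 genes that joined Dll1 and Jag2 without Vortex replicate 2, giving 4 of 10 higher against 23.9% of tested genes called and 13.9% called higher. Dll4 was at 3.32 ± 1.08 (edgeR adjusted p = 0.0916; 1.08 ± 0.64, 0.247 without Vortex replicate 2). Notch1 was at 1.08 ± 0.42 (edgeR adjusted p = 0.143; 0.30 ± 0.17, 0.22 without it). Notch4, at 2.11 ± 0.90 (edgeR adjusted p = 0.173), and Hes1, at 0.19 ± 0.39 (0.797), were at -0.23 ± 0.26 (0.555) and -0.27 ± 0.30 (0.55) without it, so their direction rested on that library. Hey2 had 13 counts in Vortex and 3 in HSS, or 4.41 times the HSS level after scaling (95% Clopper-Pearson interval 1.21 to 24.1; edgeR adjusted p = 0.172), and 6 against 3 without Vortex replicate 2, a ratio of 3.22 (0.687 to 19.9). Heyl had 16 counts in Vortex and 3 in HSS, or 5.42 times the HSS level (1.55 to 29), which did not pass (edgeR adjusted p = 0.306), and 15 of the 16 counts were in Vortex replicate 2. Of 10 endothelial markers 8 were called higher in Vortex relative to HSS with all libraries, against 7.04% of tested genes called and 4.37% called higher. Cldn5 and Erg, among the 8, entered the test mostly through other groups than HSS, so this count is a description. Cdh5 was at 329, 1300 and 381 CPM in Vortex and 119 to 126 CPM in HSS. What part the markers had in the Notch gene values was not tested.

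Ratios within a library do not depend on its total. Jag1 made up 79.5%, 48.3% and 74.7% of the summed FPKM of the 4 ligands in Vortex replicates 1, 2 and 3, 94.2%, 92.3% and 92.8% in HSS and 62.7%, 64.3% and 63% in PSS. Dll1 made up 18.2%, 33.6% and 20.6% in Vortex, 3.67%, 4.54% and 3.88% in HSS and 27.3%, 24.4% and 26.4% in PSS. The HSS shares do not overlap with those of the other groups for either ligand, and Vortex replicates 1 and 3 lie between HSS and PSS. Dll4 held at most 3.84% of ligand FPKM in any library.

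**Figure D5:**
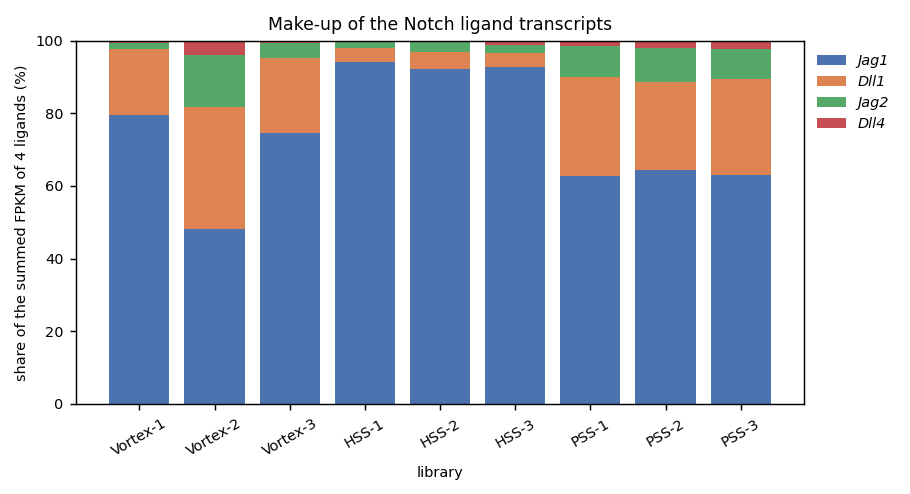
Share of each ligand in the summed FPKM of Jag1, Dll1, Jag2 and Dll4 (y axis, %, stacked to 100) in each library. Jag1 takes 92.3% to 94.2% in HSS and 62.7% to 64.3% in PSS, and the 3 Vortex libraries range from 48.3% to 79.5%.

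Among the receptors, the FPKM ratio of Notch4 to Notch1 was 0.192, 0.914 and 0.234 in Vortex, 0.322, 0.317 and 0.301 in HSS and 0.302, 0.346 and 0.276 in PSS. HSS and PSS overlapped in this ratio, and Vortex replicate 2 was the single library near 1. Among the targets, the FPKM ratio of Hey1 to Hes1 was 0.0213, 0.151 and 0.0138 in Vortex, 0.00644, 0.00623 and 0.00615 in HSS and 0.125, 0.11 and 0.112 in PSS. Hes1 thus held 99.3% of the summed FPKM of the 4 targets in every HSS library, against 87.2% to 88.8% in PSS and 86.5% to 98.6% in Vortex.

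Further genes were read from 7 lists of 83 genes, of which 82 are in the table and 73 were tested. The lists cover the rest of the pathway and also arterial and venous genes. In HSS relative to PSS 4 rose and 5 fell, or 12.3% against 7.87% of all tested genes, with a median log2 fold change of 0.06. In Vortex relative to PSS 5 rose and 5 fell, or 13.7% against 13.4% of all tested genes, with a median of 0.21. In Vortex relative to HSS 2 rose and 5 fell, or 9.59% against 7.04%, with a median of 0.13. Without Vortex replicate 2 the counts were 17 higher and 16 lower in HSS relative to PSS (45.2% against 29.1% of all tested genes), 15 and 21 in Vortex relative to PSS (49.3% against 36.3%), and 13 and 15 in Vortex relative to HSS (38.4% against 23.9%). These pooled counts give both directions, unlike the 10 Notch genes in HSS, but the lists differed. In HSS relative to PSS with all libraries, the arterial genes had a median log2 fold change of -1.45 and the venous genes of -1.33. The endothelial markers had a median of -4.05, and none of these 3 sets had a gene called higher. The other lists had medians of 0.16 to 0.38. Sets with no gene called higher were thus not limited to the Notch genes. Of the 5 that fell in HSS with all libraries, Bmx and Sox17 are arterial and Emcn and Aplnr venous genes. Aph1b was the only pathway gene among them, while all 4 that rose, Neurl1b, Tle2, Tle3 and Dtx3l, are pathway genes.

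Of 5 tested genes among the other receptors and ligands, none passed by edgeR in HSS or in Vortex relative to PSS (unadjusted p under 0.05 in 2 and in 1), and Notch3, the receptor of mural cells, fell in Vortex relative to HSS (39.5 ± 9.89 and 76.7 ± 0.975 CPM, log2 fold change -0.96, edgeR adjusted p = 0.0447; 0.0135 without Vortex replicate 2). The Notch3 call ended without any 1 HSS library or without PSS replicate 1 or 2. Of 20 ligand and receptor processing genes, Neurl1b, a ubiquitin ligase that acts on ligands, rose in HSS (15.9 ± 2.17 and 5.5 ± 0.796 CPM in HSS and PSS, 1.53 ± 0.26, edgeR adjusted p = 0.00964) and in Vortex relative to PSS (19.6 ± 5.69 CPM in Vortex, 1.84 ± 0.26, 0.00483). Its HSS call ended without HSS replicate 2 or 3. Aph1b, a subunit of the receptor-cutting gamma-secretase, fell in HSS (-1.29 ± 0.24, edgeR adjusted p = 0.0141), and Mib2, another ubiquitin ligase of ligands, rose in Vortex relative to PSS (1.12 ± 0.26, 0.023). The Aph1b call ended without PSS replicate 1 or 3 or any 1 HSS library, and the Mib2 call without any 1 PSS or HSS library.

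Of 19 genes of the nuclear complex and its corepressors, 2 rose in HSS relative to PSS, 1 rose and 3 fell in Vortex relative to PSS, and 3 fell in Vortex relative to HSS. The shares of all tested genes called were 7.87%, 13.4% and 7.04% in that order. Tle2, Tle3 and Tle4, which encode Groucho-type corepressors, were among the called genes, and Tle1 passed in none of the 3 comparisons. Tle3 was at 153 ± 5.27 CPM in Vortex, 123 ± 5.47 CPM in HSS and 54.4 ± 14.5 CPM in PSS (SD, n = 3 each), and rose in Vortex (1.49 ± 0.22, edgeR adjusted p = 0.00505) and in HSS (1.18 ± 0.22, 0.0135) relative to PSS. Tle2 was at 3.6 ± 0.901 CPM in Vortex, 21 ± 0.352 CPM in HSS and 8.89 ± 2.81 CPM in PSS. Tle2 rose in HSS (1.24 ± 0.29, edgeR adjusted p = 0.0332) and fell in Vortex, both relative to PSS (-1.30 ± 0.29, 0.0214) and relative to HSS (-2.54 ± 0.30, 0.00645). The last of these held without any 1 library and in the fit to the 2 groups alone. Tle4 (-1.10 ± 0.26, edgeR adjusted p = 0.0238) and the coactivator gene Maml2 (-0.91 ± 0.21, 0.024) fell in Vortex relative to PSS. Maml2 (-1.08 ± 0.21, edgeR adjusted p = 0.0236) and the acetyltransferase gene Kat2b (-1.75 ± 0.40, 0.0368) fell in Vortex relative to HSS. The calls of Tle4, Maml2 and Kat2b ended without any 1 HSS library, as did those of Tle3 in HSS and of Tle2 relative to PSS.

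Of 12 tested turnover genes and antagonists, the Deltex-family gene Dtx3l rose in HSS (1.23 ± 0.31, edgeR adjusted p = 0.0465). In Vortex relative to PSS, Numbl (1.40 ± 0.32, edgeR adjusted p = 0.0237) and Dtx2 (0.72 ± 0.19, 0.0351) rose and Ccnc, the cyclin C gene, fell (-0.99 ± 0.25, 0.0301). Ccnc also fell relative to HSS (-1.04 ± 0.25, edgeR adjusted p = 0.0376). Each of these calls ended without any 1 HSS library. None of 3 tested genes among the other HES family genes passed by edgeR with all 9 libraries (unadjusted p under 0.05 in 2 for HSS relative to PSS and in 1 for each Vortex comparison), and without Vortex replicate 2 Hes6, Bhlhe40 and Bhlhe41 passed in 1 comparison or more.

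Of 9 tested arterial genes, 2 fell in HSS and 7 did not pass. Bmx, a kinase gene of arterial endothelium (-2.47 ± 0.58, edgeR adjusted p = 0.0335), and Sox17, an arterial transcription factor (-3.18 ± 0.77, 0.0373), fell. Bmx had 12, 8 and 8 counts in HSS, against 47, 50 and 69 counts in PSS. It entered the test mostly through other groups than HSS, so its call is a description. Of 5 venous genes, 2 fell and 3 did not pass. Among all tested genes, 3.7% were called lower in HSS. Emcn, the endomucin gene (-4.46 ± 0.82, edgeR adjusted p = 0.0138), and Aplnr, the apelin receptor gene (-3.76 ± 0.86, 0.0311), fell. Aplnr had 4, 0 and 5 counts in HSS, against 33, 41 and 59 counts in PSS. It entered the test through other groups than HSS, so its call is a description. Nrp2 was higher in each HSS library (392 to 397 CPM) than in any PSS library (237 to 354 CPM) and did not pass (0.36 ± 0.22, edgeR adjusted p = 0.383). Ephb4 (76.1 to 79.5 and 166 to 219 CPM in HSS and PSS) and Nr2f2 (32.6 to 35.3 and 63.2 to 82.8 CPM) were lower without overlap. Both were called lower only without Vortex replicate 2. In Vortex relative to PSS, Nrp1, an arterial co-receptor gene, fell (-1.18 ± 0.18, edgeR adjusted p = 0.00527; -1.34, 4.49e-05 without Vortex replicate 2). In Vortex relative to HSS, Sox17 (3.39 ± 0.77, edgeR adjusted p = 0.0355) and Emcn (3.51 ± 0.79, 0.0342) rose. Except for that of Nrp1, each of these calls with all 9 libraries ended without any 1 HSS library. Of all the Vortex calls in these 7 lists, Tle2 relative to HSS was the single one named here that held in a fit to the 2 groups alone.

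The genes most like 3 members in profile were found by the root-mean-square difference of log2 CPM, centred per gene, over the 9 libraries among 13332 tested genes. For Notch4 they were Exoc3l (0.21), Nlrc3 (0.24) and Dmtn (0.25). For Hey1 they were St8sia6 (0.24), Ppp1r1b (0.28) and Rflnb (0.29). For Dll4, whose counts are low, they were Tmem44 (0.51), Pitpnm3 (0.53) and Aqp1 (0.54). The likeness is a description over 9 libraries that share the high values of Vortex replicate 2.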

How the data were processed

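Per the labels' protocols, RNA of 9 bEnd.3 libraries, 3 each of Vortex, HSS and PSS flow, was taken with TRIzol, and 1.5 µg per sample went into a NEBNext Ultra kit. The labels call this RNA mixed. HISAT2, HTSeq 0.13.5 and GRCm39 are named in the submitters' processing notes. The strand setting of HTSeq is not given in the sources used, so sense and antisense reads cannot be told apart. The deposited table lists 31232 genes with an unnormalized whole-number count in each library. It also holds FPKM, scaled by the authors to gene length and library total: 1 length explained both columns for 100% of genes within a relative tolerance of 1e-06. Sample columns left unused numbered 0.

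edgeR 4.0.16 in R 4.3.3 was used on the counts. The filterByExpr filter (minimum count 10) kept 15774 genes, all 10 Notch genes among them, and TMM scaled the libraries. The robust quasi-likelihood fit had 1 mean per group over all 9 libraries. Calls were made at 0.05 after Benjamini-Hochberg adjustment across the tested genes, with a biological coefficient of variation of 0.35. An SE here is the size of the log2 fold change over the square root of its F statistic. Since 3 against 3 libraries allow no exact permutation p under 0.1, the p of a single gene rests on the variance model shared across genes. Log2 CPM used a prior count of 2. For groups with 1 to 3 counts, ratios of scaled counts carry 95% Clopper-Pearson intervals, which cover counting error only. Scripts were tested on simulated data.

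GC content came from GENCODE M21 on GRCm38 for 98.5% of tested genes, and its trend was removed as an offset (lowess span 0.3) in an alternative. Promoter windows came from RefSeq on GRCm38.p6. Other alternatives were DESeq2 1.42.0, limma 3.58.1 on voom values and on log2(FPKM + 1) and log2(FPKM + 0.1), other scalings and filters, the replicate number as a block, the 2 compared groups alone, and each library left out. Named are the 10 Notch genes and the 3 nearest profiles of Notch4, Dll4 and Hey1. Of each further list of pathway, arterial or venous genes, up to 3 with the smallest p among those called are named. The Notch genes and all lists were chosen with earlier results of these data known. Of the listed genes, Thy1, Cd3e, Olig2 and Cxcr4 were not analysed here.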

Additional observations from a re-analysis of the deposited data

How the results depend on the processing

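For HSS against PSS, 218 alternative values were computed and the direction of each Notch gene held in all of them. The HSS and PSS ranges of these genes did not overlap, so refits of the same libraries had little room to turn a sign. The direction held in 193 of 218 values for Vortex against PSS and in 205 of 216 for Vortex against HSS. For the exceptions the cause was not tested. Low counts limit Dll4, Hey2 and Heyl in HSS and Vortex, and the spread of 3 Vortex libraries limits both Vortex comparisons.

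Of the 10 Notch genes, 4 were called in HSS against PSS with all libraries, 10 in the fit to the 2 groups alone, 8 with the GC offset and Vortex replicate 2 left out, and 1 to 8 with 1 library left out. In Vortex against PSS 1 was called, and 0 with the filter of 1 CPM, the replicate block, the 2 groups alone or the GC offset with the replicate block. It was 2 with DESeq2, limma-voom, log2(FPKM + 1) or log2(FPKM + 0.1), 8 with the GC offset without Vortex replicate 2, and 0 to 5 with 1 library left out. In Vortex against HSS 2 were called, 1 with library totals, no filter, the replicate block, limma-voom, either FPKM scale, or the GC offset with the block. It was 4 with DESeq2 or the GC offset without Vortex replicate 2, 0 in the 2 groups alone, and 0 to 6 with 1 library left out. Deviations of same-numbered libraries from their group means correlated at r -0.123 to 0.118. With 3 libraries per group this cannot show whether libraries of the same number were prepared together. With the block the HSS calls of Hey1 (adjusted p = 0.0513) and Heyl (0.0617) ended and Jag2 passed (0.0477).

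Over all genes, HSS against PSS gave 1242 calls, 772 with the replicate block, 2456 with DESeq2, 6233 in the 2 groups alone, 4872 with the GC offset without Vortex replicate 2, and 285 to 4730 with 1 library left out. Vortex against PSS gave 2107, and 1258, 3489, 74 and 6089 in the same order, 620 with the GC offset and block, and 519 to 5888 with 1 library left out. Vortex against HSS gave 1111, and 357, 2700, 66 and 4263 in that order, 713 with no filter, 485 with the GC offset and block, and 25 to 3887 with 1 library left out.

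Signs turned round in Vortex against PSS as log2 fold changes. Notch1 was -0.06 on log2(FPKM + 1), -0.07 on log2(FPKM + 0.1), -0.25 with the GC offset, -0.31 with the offset and block, -0.66 with the offset without Vortex replicate 2, and -0.45 to 0.60 with 1 library left out. Jag2 was -0.21, -0.49, -0.25, -0.70 and -1.67 under those 5 in the same order, -0.22 with the block, -0.33 with limma-voom, and -1.51 to 0.94. Dll4 was -0.26 with limma-voom, -0.25 on log2(FPKM + 0.1), -0.32 with the offset and block, -1.65 with the offset without Vortex replicate 2, and -1.47 to 1.31. Dll1 was -0.06 and -0.35 under the last 2, and -0.17 to 0.99. Notch4 was -1.14 with the offset without Vortex replicate 2, and -0.97 to 1.84, and Hes1 ranged from -0.66 to 0.13 with 1 library left out. In Vortex against HSS, Hes1 was -0.0 with limma-voom, -0.14 and -0.15 on the 2 FPKM scales, -0.17 with the GC offset, -0.23 with the offset and block, -0.32 with the offset without Vortex replicate 2, and -0.27 to 0.54. Under that last setting Notch4 was -0.26 (-0.23 to 2.59 with 1 library left out) and Heyl -0.82 (-0.77 to 3.10). DESeq2 gave no adjusted p for Hey1, the filter of 1 CPM left out Hey2, and Hey2 and Heyl could not be fitted in Vortex and HSS alone.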

Other observations

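A pair of pathway genes and a pair of arterial genes, picked after their values were seen, complete the picture. Nrarp, a target and feedback inhibitor of Notch signalling, was at 0.505, 13.4 and 1.63 CPM in Vortex replicates 1, 2 and 3, 0.377, 0.617 and 0.421 CPM in HSS and 4.19, 3.84 and 3.74 CPM in PSS. Every HSS library was below every PSS library, but Nrarp did not pass with all libraries (-3.05 ± 1.02, edgeR adjusted p = 0.106) and passed without Vortex replicate 2 (0.000447). Its HSS levels rest on 8, 11 and 8 counts, against 83, 79 and 79 counts in PSS. Nrarp entered these tests mostly through other groups than HSS, so its call is a description. Gja4, a gap junction gene of arterial endothelium, was at 1.01, 142 and 3.46 CPM in Vortex, 1.23, 1.07 and 0.894 CPM in HSS and 32.6, 31.3 and 27.4 CPM in PSS. In HSS relative to PSS it was at -4.83 ± 1.55 (edgeR adjusted p = 0.0947; 9.82e-06 without Vortex replicate 2). Efnb2, the arterial ephrin gene, was at 44.9, 196 and 58.3 CPM in Vortex, 77.7, 75.7 and 69.3 CPM in HSS and 174, 190 and 112 CPM in PSS (HSS relative to PSS -1.10 ± 0.50, edgeR adjusted p = 0.224; 0.00204 without Vortex replicate 2).

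Rbpj, which encodes the pathway's DNA-binding protein, had the opposite pattern among the Vortex libraries. It was at 324, 55.9 and 232 CPM in Vortex replicates 1, 2 and 3, 104, 96.4 and 108 CPM in HSS and 90.5, 88.3 and 83.8 CPM in PSS, so Vortex replicate 2 was the lowest of the 9 libraries and Vortex replicates 1 and 3 the highest. In Vortex relative to PSS it did not pass with all libraries (1.22 ± 0.49, edgeR adjusted p = 0.132) and rose by 1.66 on the log2 scale without Vortex replicate 2 (3.52e-05). Vortex replicate 2 was also the lowest of the 9 libraries for other listed pathway genes, such as Adam10, Adam17, Mib1, Itch and Ncor1. The share of all tested genes that were lowest in that library is not given here.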
